A study of Homo sapiens with 2 samples.

Results

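IL-6 and IGF-1 are the growth and survival factors that bone marrow supplies to myeloma cells. The genes described here are 10 members of their receptor pathways: IL6, IL6R, IL6ST, JAK1, JAK2, STAT3, SOCS1, SOCS3, IGF1R and IRS1. They were chosen by name, as the probe sets that the array annotation maps to exactly 1 of these symbols. All 10 were found, on 11 probe sets, among 18377 genes measured. RNA of LP-1, a human myeloma line long kept in culture, was measured on 2 Affymetrix whole-transcript arrays, 1 per group. Cells of the vector control array were infected with pRUF-IRES-GFP alone. Cells of the HIF2A array stably carried pRUF-IRES-GFP-HIF2A, which adds the complete human HIF-2α coding cDNA. HIF-2α is the transcription factor subunit that low oxygen stabilises, here supplied by a vector and not by low oxygen. The labels do not say whether each line is a pool of infected cells or 1 clone, nor at which oxygen level it grew.

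IL-6 binds its receptor chain, encoded by IL6R, and the pair then engages gp130, the signalling chain encoded by IL6ST. Kinases of the JAK family bound to gp130 phosphorylate the transcription factor STAT3, whose targets include SOCS3, a feedback inhibitor of the same receptor. IGF-1 binds the receptor tyrosine kinase IGF1R, which phosphorylates IRS adaptor proteins and so feeds the PI3K-AKT and MAPK pathways. Myeloma cells use both routes for growth and survival, with much of the IL-6 coming from marrow stromal cells.

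None of the 8 members past a filter on dim signals differed as much as 2-fold between the arrays. Of all genes past that filter, 0.706% were higher by 2-fold or more in the HIF2A array and 0.732% were lower by as much. JAK1 differed the most of the 8, 1.68-fold higher in the HIF2A array. It was the one of them past 1.5-fold, which 5.67% of genes were in that direction and 4.76% in the other. The ligand gene IL6 lay in the background range of both arrays, and JAK2 in that of the vector control. The receptor genes IL6R, IL6ST and IGF1R and the gene of STAT3 differed by at most 1.26-fold. Signals are log2 values, and each difference is HIF2A minus vector control in log2 units, so that 1 unit is 2-fold. With 1 array per group a difference has no replicate error, no test and no p-value, and nothing below is a statement about other cultures. Signals of different probe sets are not comparable with each other, so genes are compared only between arrays.

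The arrays were much alike in scale, with median signals of 4.02 in the vector control and 4 in the HIF2A array. Background was taken from 359 olfactory receptor genes, whose 95th percentiles were 3.59 and 3.58. Counts cover the 11469 genes with a signal of 4.01, the median probe set, or more in at least 1 array. Their median difference was 0.03 and their robust SD, a spread measure insensitive to extreme genes, was 0.34. Across deciles of signal that SD ran from 0.3 to 0.39. Of the members 8 passed this filter, with 0 past 2-fold, 1 higher by more than 1.5-fold and 0 lower by as much. With 8 members a single gene is 12.5%, so no more is read from these counts. EPAS1, the gene of HIF-2α, had signals of 3.70 and 9.05, a 40.79-fold difference whose direction goes with the labels. The vector control signal is just above background and below the filter, so the size of that fold is uncertain.

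All 9 plasma cell markers examined, such as SDC1 and XBP1, were above background in both arrays. Their summed signal was 11.79 in the vector control and 11.81 in the HIF2A array on a log2 scale. The median of their signals was 8.13 and 7.68, whereas the median of their differences was 0.06, with 5 higher and 4 lower. Marrow stromal markers, from the cells that could bring IL6 along, were above background for 3 of 7 genes in each array. DCN, LUM, POSTN and PDGFRB were in the background range of both, and the summed signal of the 7 was 6.37 in each. The brightest stromal signals were 4.72 in the vector control and 4.59 in the HIF2A array. Myeloid markers were above background for 2 of 8 in each array, with sums of 6.39 and 6.46. T and NK cell markers were above it for 3 and 2 of 7, with sums of 6.45 and 6.52. Endothelial markers were above it for 3 of 6 in each, with sums of 6.67 and 6.87. VWF, KDR and TEK were in the background range, whereas PECAM1, CDH5 and CLDN5 were above it. The brightest endothelial signals were 5.16 in the vector control and 5.28 in the HIF2A array. The share of all genes above background was not computed. Of the 18377 genes, 11469 reached the higher filter level in at least 1 array, so a signal above background is common.

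**Figure D1:**
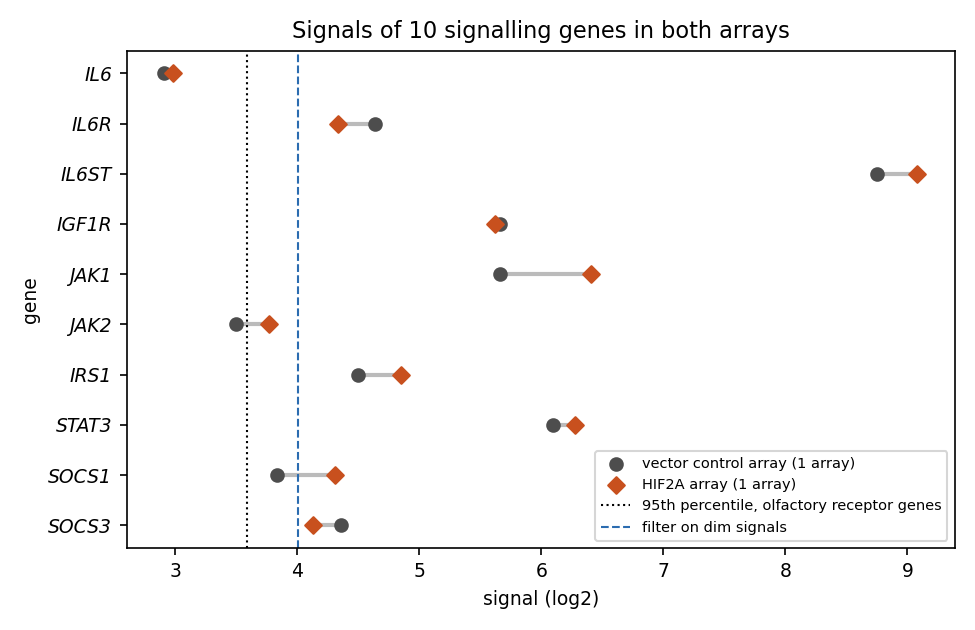
Log2 signal (x axis) of each of the 10 genes (y axis) in the vector control array (circles) and the HIF2A array (diamonds), with 1 array per group and therefore no error bars. The dotted line is the olfactory receptor 95th percentile of the vector control (3.59) and the dashed line the filter (4.01). IL6 sits left of the dotted line in both arrays, and the pair of JAK1 points, 5.66 and 6.41, is the widest apart.

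The signals of the ligand gene IL6 were 2.91 in the vector control and 2.98 in the HIF2A array. Both values lie close to the olfactory receptor medians of 2.93 and 2.84, so no fold is given and neither array shows IL6 above background. Its 20 neighbouring genes on chromosome 7 had a median difference of -0.34.

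Among the receptor genes, IL6R, which encodes the chain that binds IL-6, had 4.64 in the vector control and 4.33 in the HIF2A array. That difference of -0.31 is within 1 robust SD of all genes, and 16.8% of genes past the filter were at least as low. Neighbours of IL6R on chromosome 1 had a median of -0.15. IL6ST, which encodes gp130, the chain shared by the whole IL-6 cytokine family, had 8.75 and 9.08, far above background in both arrays. Its difference of 0.33 was reached or exceeded by 19.6% of genes. On chromosome 5 its neighbours had a median of 0.23, which leaves 0.1 once subtracted. The pair of IL-6 receptor chains thus differed in opposite directions, each by less than the robust SD of 0.34.

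IGF1R is the only member with more than 1 probe set. The brighter one had 5.66 and 5.62, a difference of -0.04, and the other had 5.35 and 5.43, a difference of 0.08. Their gap of 0.12 is close to 0.15, the median gap between the 2 brightest differing probe sets of 333 genes. The sign of the IGF1R difference therefore depends on the probe set, and both values are small beside the spread of all genes.

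JAK1 encodes the kinase on which gp130 signalling mainly depends. Its signals were 5.66 in the vector control and 6.41 in the HIF2A array, which gives a difference of 0.75. Of the 11469 genes, 2.53% were at least as high. Its 20 neighbouring genes on chromosome 1 had a median difference of 0.34, and 0.41 or 1.32-fold remains after subtracting it. That value is below 1.5-fold, as is 0.50 with 32 added to each linear signal, whereas quantile, median and loess scaling gave 0.70, 0.77 and 0.71. The part of the neighbourhood in the JAK1 difference was not tested. JAK2, a second kinase of the family, had 3.50 and 3.77. The first is in the background range and neither reaches the filter, so JAK2 was left out of the counts. Its HIF2A signal was 1.13-fold above the background level of the vector control, a gap smaller than the robust SD of 0.34.

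The proximal promoters of these genes are shown because HIF-2α binds DNA at the core letters ACGTG or GCGTG. RefSeq (GRCh38.p14) gave 16 start-site windows for the 10 genes, and the 250 bases before each start were searched on both strands. Capitals mark ACGTG and GCGTG or their reverse complements, CACGT and CACGC, and overlapping matches run together. The first 2 sequences lie before separate starts of JAK1, the gene with the largest difference. IGF1R holds the most matches among the 16 windows and IL6ST holds none.
JAK1, chr1:65067747-65067996, minus strand: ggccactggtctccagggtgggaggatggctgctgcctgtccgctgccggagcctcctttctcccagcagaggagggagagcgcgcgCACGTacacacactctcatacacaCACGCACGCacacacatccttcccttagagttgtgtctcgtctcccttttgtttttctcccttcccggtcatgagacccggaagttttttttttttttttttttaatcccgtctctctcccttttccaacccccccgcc
JAK1, chr1:64966550-64966799, minus strand: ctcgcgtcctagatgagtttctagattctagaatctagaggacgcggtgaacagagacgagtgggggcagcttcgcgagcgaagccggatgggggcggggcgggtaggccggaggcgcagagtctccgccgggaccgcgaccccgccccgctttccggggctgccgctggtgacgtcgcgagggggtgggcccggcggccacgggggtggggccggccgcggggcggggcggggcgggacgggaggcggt
IGF1R, chr15:98648289-98648538, plus strand: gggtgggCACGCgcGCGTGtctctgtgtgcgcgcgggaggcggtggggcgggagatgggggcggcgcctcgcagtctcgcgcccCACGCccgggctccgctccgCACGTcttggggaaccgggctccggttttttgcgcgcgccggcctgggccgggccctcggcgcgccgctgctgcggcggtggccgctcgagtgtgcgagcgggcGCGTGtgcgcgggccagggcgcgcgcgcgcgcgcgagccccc
IL6ST, chr5:55994964-55995213, minus strand: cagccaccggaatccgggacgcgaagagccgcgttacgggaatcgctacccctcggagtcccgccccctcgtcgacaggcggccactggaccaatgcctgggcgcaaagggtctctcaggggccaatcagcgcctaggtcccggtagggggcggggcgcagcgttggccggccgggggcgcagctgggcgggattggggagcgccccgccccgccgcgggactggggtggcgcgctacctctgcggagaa

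In the upper JAK1 window the 3 matches begin 163, 139 and 135 bases before the start. The other 2 JAK1 windows hold 0. The 5 matches before IGF1R begin 243, 236, 166, 146 and 42 bases before its start, in a window of 81.2% G and C, whereas the upper JAK1 window has 55.6%. Of the 16 windows 9 hold at least 1 match, and these belong to 6 genes: JAK1, JAK2, STAT3, SOCS3, IGF1R and IRS1. Genes with several starts count repeatedly, and overlapping windows of JAK2 share a match. Among all 35116 RefSeq windows of this length 43.2% hold one, 18.5% with ACGTG and 32.2% with GCGTG. These shares are per window. No share per gene was computed, so the count of 6 genes has none beside it. IL6, IL6R, IL6ST and SOCS1 hold no match in this window. A relation between matches and differences was not tested. A palindromic STAT element, TTCNNNGAA, was in 0 of the 16 windows and in 6.57% of all. A match is a string of letters, not a bound site, and these arrays did not measure binding.

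STAT3, the transcription factor that gp130 activates, had 6.10 in the vector control and 6.28 in the HIF2A array. The difference of 0.18 is about the size that 33.4% of genes reached or exceeded. Activity of STAT3 depends on its phosphorylation, which an expression array does not measure.

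SOCS1 and SOCS3 encode feedback inhibitors that bind JAK kinases and cytokine receptors. SOCS1 had 3.83 and 4.31, a difference of 0.48 or 1.39-fold, which 9.77% of genes reached or exceeded. Its vector control signal is below the filter and just above background, so it entered the counts only through the array in which it is brighter. SOCS3 had 4.36 and 4.13, a difference of -0.23, and 23.0% of genes were at least as low. The neighbours of SOCS1 on chromosome 16 had a median of 0.07 and those of SOCS3 on chromosome 17 one of 0.17. The 2 inhibitors thus lay on opposite sides of 0, both dim.

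IRS1 encodes the adaptor that links IGF1R to PI3K. It had 4.50 and 4.85, a difference of 0.35 or 1.27-fold, and 18.0% of genes were at least as high. Its neighbours on chromosome 2 had a median of 0.04, so 0.31 remains after subtracting it.

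**Figure D2:**
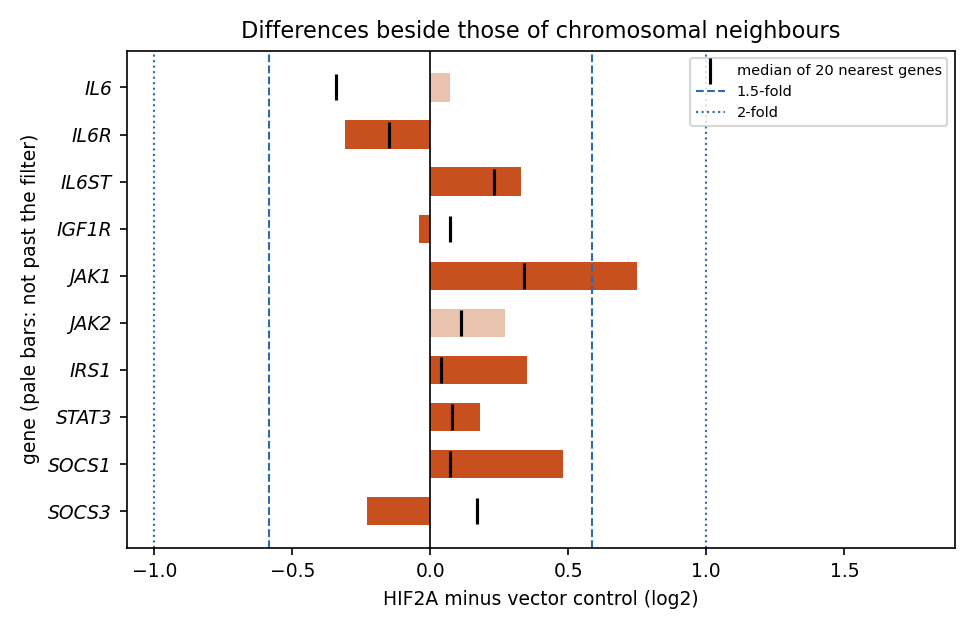
HIF2A minus vector control (x axis, log2) for each of the 10 genes (bars, y axis), with the median of the 20 neighbouring genes as a black tick and pale bars for genes that did not pass the filter. JAK1 at 0.75 is the one bar past 1.5-fold (dashed) and no bar reaches 2-fold (dotted); the JAK1 tick stands at 0.34.

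Of the 8 members past the filter, 5 were higher and 3 lower in the HIF2A array; the median was 0.26 and a range from -0.31 to 0.75. Over all genes 52.6% were higher. After subtraction of neighbours the members' median was 0.1, still with 5 higher and 3 lower, and 0 were past 1.5-fold. SOCS1 aside, the 7 members past the filter in both arrays had a median of 0.18.

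**Figure D3:**
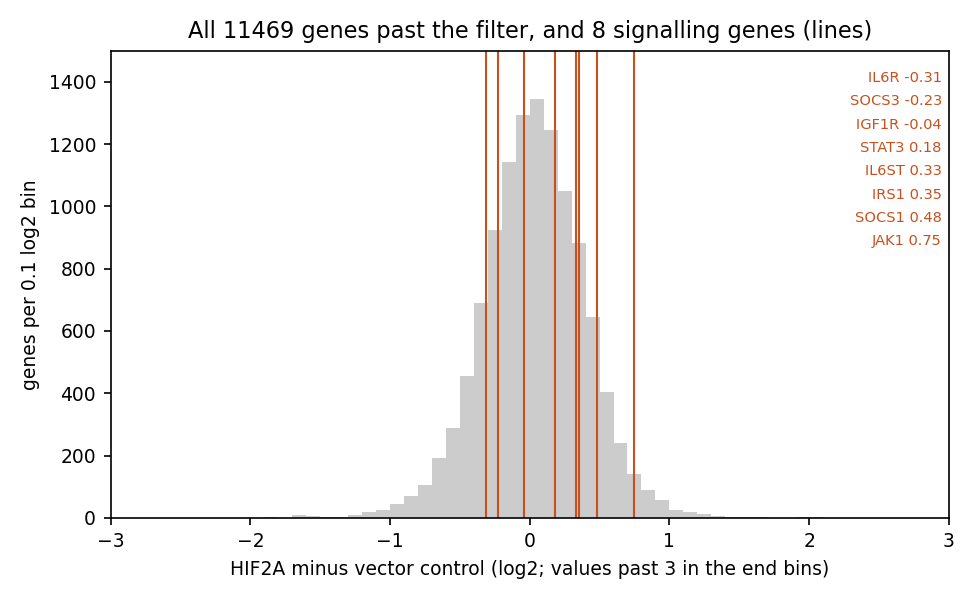
Number of genes (y axis) per bin of HIF2A minus vector control (x axis, log2) for 11469 genes past the filter, with the 8 members past the filter as labelled lines. EPAS1, at 5.35, is drawn in the last bin. IL6R at -0.31 and JAK1 at 0.75 bound the members, and the other 6 lie between them.

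Other genes of these pathways were described by 7 lists with 122 genes, of which 105 had a probe set with a single symbol and 84 passed the filter. The lists were written from general knowledge with earlier results of these data known. The counts are therefore descriptions and no test of the pathways. Of the 84 genes 57 were higher and 27 lower, which is 67.9% higher against 52.6% of all genes, and the median was 0.2. At least 1.5-fold higher were 13, or 15.5% against 5.67% of all genes, and 1 was at least 1.5-fold lower, against 4.76%. None reached 2-fold in either direction. After subtraction of neighbours 9 were past 1.5-fold upward, or 10.7% against 4.86%, and 1 downward. Of the 13 genes, 6 were among these 9. With 32 added to each linear signal 2 genes, or 2.38% against 1.21% of all genes, were past 1.5-fold upward. Of the 84, 8 passed the filter in 1 array only. Among the other 76, 65.8% were higher and 10 were at least 1.5-fold higher, 13.2% against 5.27% of all genes passing in both arrays.

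Cytokines and receptors that also signal through gp130 or a related chain had a median of 0.17 over 7 genes. Of these 6 were higher and 1 lower, or 85.7% higher against 52.6% of all genes. At least 1.5-fold higher were 2 of the 7, or 28.6% against 5.67%. After subtraction of neighbours 0 were, against 4.86%. LIFR, which encodes the receptor chain for leukemia inhibitory factor, had 4.77 in the vector control and 5.48 in the HIF2A array, 1.64-fold higher. The LIFR neighbours had a median of 0.19, which leaves 0.52 once subtracted. OSM, which encodes the cytokine oncostatin M, had 3.63 and 4.22, the first just above background and below the filter. It entered the counts only through the HIF2A array, and of the 6 genes past the filter in both arrays 5 were higher. CNTFR had 4.28 and 4.48. IL27RA, a receptor gene for interleukin-27, was the lower member, at 5.85 against 6.24. LIF and OSMR were in the background range of both arrays. Past the filter, the 4 other JAK and STAT genes were split, with TYK2 at 0.38, JAK3 at 0.2, STAT5B at -0.04 and STAT6 at -0.41. TYK2, a kinase that also binds gp130, had 6.37 and 6.75.

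Brakes on JAK-STAT signalling had a median of 0.13 over 15 genes, with 11 higher and 4 lower. The share higher was 73.3%, against 52.6% of all genes. Past 1.5-fold upward were 3 of the 15, against 5.67% of all genes, and 1 after subtraction of neighbours, or 6.67% against 4.86%. CBL, a ubiquitin ligase that promotes the turnover of activated receptors, had 4.83 in the vector control and 5.61 in the HIF2A array, among neighbours with a median of 0.26. PIAS3, which encodes an inhibitor of STAT3 binding to DNA, had 6.61 and 7.28, and SOCS6 had 4.40 and 5.06. The lowest differences were small, with PTPN1, a phosphatase gene, at -0.16, SOCS4 at -0.07 and PTPN11 at -0.06.

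Known STAT3 targets had a median of 0.24 over 17 genes, with 13 higher and 4 lower. That is 76.5% higher against 52.6% of all genes. SOCS3, a target with a difference of -0.23, was counted among the members and not in this list. BCL3, which encodes a nuclear partner of NF-kB, had 5.02 in the vector control and 5.97 in the HIF2A array, a 1.93-fold difference and the largest of the 84 genes. IRF1, an interferon response factor gene, had 3.64 and 4.31, among neighbours with a median of 0.29, and passed the filter only through the HIF2A array. MCL1, which encodes a survival protein of myeloma cells, had 9.55 and 10.08, and MYC, with an equal difference of 0.53, had 8.69 and 9.22. Lower were CEBPB at -0.43, the kinase genes PIM1 at -0.24 and PIM3 at -0.2, and TIMP1 at -0.22. MCL1, MYC, IRF1, BCL3 and PIM1 also answer to other pathways, so the list is no readout of STAT3 alone.

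IGF ligands, receptors and binding proteins were the one list with a median below 0, at -0.14 over 9 genes, with 6 lower and 3 higher. The share higher was 33.3%, against 52.6% of all genes. IGFBP7, which encodes a secreted IGF-binding protein, had 5.03 in the vector control and 4.49 in the HIF2A array. IGFALS, the gene of the subunit that stabilises IGF in serum, had a difference of -0.37 and IGFBP2 one of -0.35. INSR, the insulin receptor gene and closest relative of IGF1R, was higher at 6.21 against 5.75. IGFBP3 and IGFBP4 had differences of 0.31 and 0.27. The median of the IGFBP3 neighbours went the other way, at -0.29. IGF1 itself, named here after its value was seen, had 4.22 and 4.01, both near the filter level.

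Among 13 adaptor and RAS-MAPK genes below IGF1R, 8 were higher and 5 lower, and their median was 0.16. The share higher was 61.5%, against 52.6% of all genes. MAP2K1, which encodes the kinase MEK1, had 7.28 in the vector control and 7.97 in the HIF2A array. IRS2, the paralog of IRS1, had 4.23 and 4.89, 1.58-fold higher, the direction of IRS1. IRS4 went the other way, with 4.05 and 3.80, the second below the filter. SOS2, an exchange factor gene for RAS, had a difference of 0.49. GAB1, an adaptor gene, had -0.4, among neighbours with a median of -0.47. SHC1, another adaptor gene, had -0.15.

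In the PI3K-AKT list 14 genes were higher and 5 lower, and the median of the 19 was 0.27. That is 73.7% higher against 52.6% of all genes, and 4 genes, or 21.1% against 5.67%, were at least 1.5-fold higher. With neighbours subtracted the median was 0.14, and 3 genes were at least 1.5-fold higher, 15.8% against 4.86%. PIK3CB, which encodes a catalytic subunit of PI3K, had 5.71 in the vector control and 6.60 in the HIF2A array, 1.85-fold higher. FOXO1, a transcription factor gene whose product AKT inactivates, had 6.35 and 7.09, whereas its relative FOXO3 had 5.57 and 4.92 and was the one gene of the 84 at least 1.5-fold lower. PHLPP2, a phosphatase gene that opposes AKT, had 4.28 in the HIF2A array but only background signal in the vector control. Its HIF2A signal was 1.61-fold above the background level of the vector control, and it passed the filter only through the HIF2A array. RPTOR, a subunit gene of mTORC1, was the other member past 1.5-fold, at 5.80 against 5.07, and was picked after its value was seen. GSK3B had -0.3 and PHLPP1 -0.21. The list holds both activators and inhibitors of AKT among its higher genes.

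**Figure D4:**
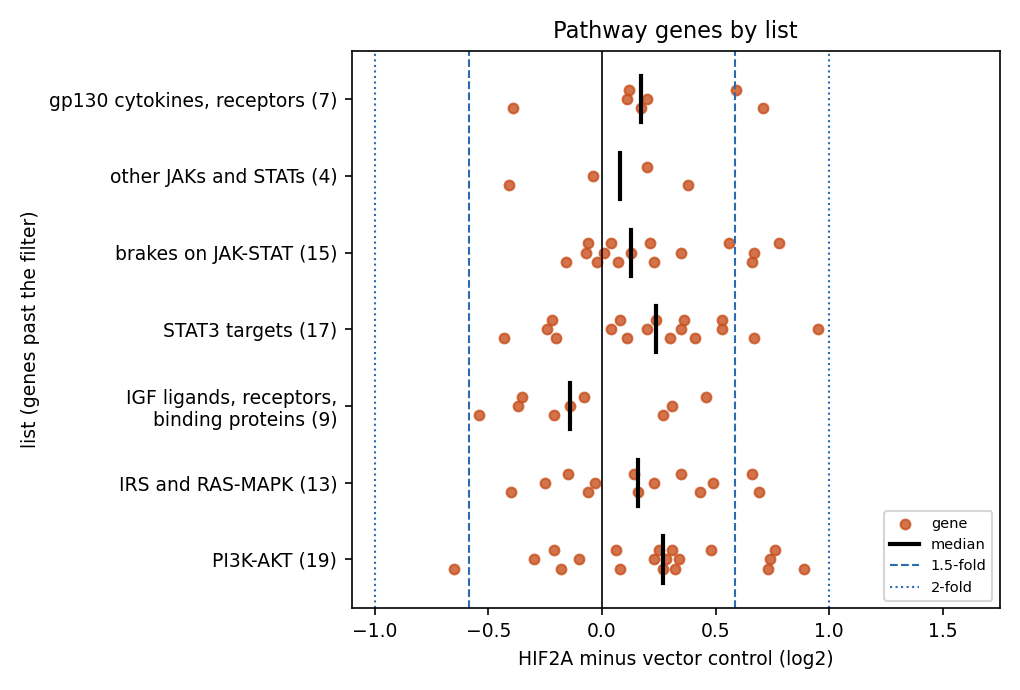
HIF2A minus vector control (x axis, log2) for 84 pathway genes past the filter (points) in 7 lists (y axis, with the number of genes), with the median of each list as a black bar and 1.5-fold and 2-fold as dashed and dotted lines. List medians run from -0.14 for the IGF list to 0.27 for PI3K-AKT, and no point reaches 2-fold.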

How the data were processed

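RNA of 2 LP-1 lines was hybridised to 1 Affymetrix whole-transcript array each. The authors deposited log2 signals per probe set, for which the submitters' processing notes name Affymetrix Expression Console. The steps of summarising probes and centring columns were not given in the sources used here. Base 2 was inferred from the highest value, 13.97, since natural logs of a 16-bit scanner end at 11.09.

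Of 28869 probe sets, 19310 carry 1 gene symbol, and 19279 of these were matched by Entrez number to RefSeq genes of GRCh38.p14, used for names and gene order. Each of 18377 genes took its probe set with the highest mean. Genes entered counts when the brighter array reached 4.01. Neighbours are 20 genes past the filter on the same chromosome, the gene itself left out. They were taken in equal number from each side by start position, except near chromosome ends. Named genes are all members, EPAS1, and in each list up to 3 with the largest positive and 3 with the largest negative difference. IGF1, IGF2R, RPTOR, MYC, PIM3, LIF and OSMR stand outside that rule, their values being known when they were picked. The members and lists were chosen with earlier results of these data known. Listed genes without a single-symbol probe set were not analysed here.

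The number of arrays limits the precision, since 1 array per group allows no test. The alternatives were quantile, median and loess scaling (span 0.3), 32 added on the linear scale, other probe sets, filters and folds, a floor at background, and subtraction of neighbours. The code was tested on simulated data. Python 3.11.15, numpy 2.4.6, pandas 2.3.3, statsmodels 0.14.6 and matplotlib 3.10.9 were used.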

Additional observations from a re-analysis of the deposited data

How the results depend on the processing

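Of 80 values of the 10 genes under 8 other settings of scaling, offset, probe set, neighbours and floor, 1 moved by more than the robust SD of 0.341, JAK1 with neighbours subtracted, by 0.345 to 0.41. IL6, in the background range, moved by 0.335 to the same value in that setting, just under the SD. JAK1 otherwise lay between that value and 0.77. IGF1R changed sign with the mean of its probe sets and with the dimmest one, at 0.08, and IL6 with the floor, at -0.01, where both arrays take the floor's own values. The other 8 genes kept their sign in these settings. The counts of 0 members at least 2-fold apart held in each scaling, offset, probe set, neighbour, floor and filter setting, and at 1.5-fold 1 was higher. Of all genes, 650 were higher and 546 lower at 1.5-fold, 14 and 15 at 3-fold, and 18 and 24 with 32 added on the linear scale, a step that shrinks the differences of dim genes.

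Of 77 list medians, 6 moved by more than 0.1. With the filter at the 75th percentile the gp130 list had -0.39, the other JAK and STAT genes -0.04 and the IGF list 0.16, since fewer genes enter. The gp130 value is that of IL27RA alone, and the IGF value comes from INSR at 0.46 and IGF2R at -0.14. With neighbours subtracted the other JAK and STAT genes had -0.10 and PI3K-AKT 0.14, and with 32 added PI3K-AKT also had 0.14. The sign of the 3 lists named first therefore depends on the setting, for the gp130 and IGF lists only at the 75th percentile filter. Of the pathway genes together, between 64.3% and 68.7% were higher in these settings, against 48.9% to 55.3% of all genes. No paired analysis was possible because each group has 1 array, and no replicate could be left out. Depth does not apply to arrays; IL6 in both arrays and JAK2 in the vector control were not above background.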
